A study of Mus musculus with 8 samples.

Results

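T-box genes were examined in LLC cells, a mouse lung carcinoma line, around Tbx5. The set holds 8 genes, Tbx1, Tbx2, Tbx3, Tbx4, Tbx5, Tbx15, Tbx18 and Tbx20, of the 17 T-box genes looked up by symbol among the 55487 genes counted. The members were chosen by the genotype difference of these same libraries, in particular the level of Tbx5, and by kinship to it, so the differences between genotypes in these 8 genes are given as a description, with no p. The RNA-seq comprised 4 wild-type and 4 ΔAgo2 libraries of LLC cells, the latter being cells in which Argonaute 2, the slicing Argonaute of RNA interference, was targeted. Cells of both genotypes grew in culture in DMEM with serum made for embryonic stem cells. The titles and library names of the 8 libraries name no batch, and all 8 were taken as 1 batch. The ΔAgo2 cells were made by infection with a lentivirus carrying Cas9 and an Ago2 guide, followed by puromycin, and the methods do not state that the wild-type cells received a control virus. The methods describe a sort of individual cells into clones after the knock-out steps, but whether the ΔAgo2 cells of these libraries were 1 clone or a pool is not given in the sources used here, and neither is whether the libraries came from separate cultures, so the tests measure only the spread between these libraries.

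T-box factors share a DNA-binding domain, the T-box, and switch genes on or off in the developing heart, limbs, lung and craniofacial tissues. Tbx2, Tbx3, Tbx4 and Tbx5 form 1 subfamily, which lies in the genome as linked pairs, Tbx2 beside Tbx4 and Tbx3 beside Tbx5. Tbx2 and Tbx3 act mainly as repressors, whereas Tbx4 and Tbx5 act mainly as activators and drive hindlimb, forelimb, heart and lung mesenchyme programs. Tbx1, Tbx15, Tbx18 and Tbx20 belong to another subfamily, with roles in the pharyngeal arches, the skeleton and adipocytes, the epicardium and sinus node, and the heart.

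A matching coding stretch of the repressors Tbx2 and Tbx3, one from each linked pair, is shown to give an example of how far family members whose counts are compared differ base by base. The sequences are from the GENCODE M21 transcripts of GRCm38, 5′ to 3′, and capitals mark the bases that differ. They lie in exon 1 of Tbx2 (chr11:85833401-85833474, plus strand) and exon 1 of Tbx3 (chr5:119672304-119672377, plus strand).
Tbx2: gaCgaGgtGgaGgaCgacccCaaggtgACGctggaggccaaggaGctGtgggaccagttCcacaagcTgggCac
Tbx3: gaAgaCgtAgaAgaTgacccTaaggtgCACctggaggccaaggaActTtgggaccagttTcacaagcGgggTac
Here 14 of 74 bases differed, an identity of 81.1%. The stretch was taken around the longest run of identical coding bases of Tbx2 and Tbx3, which was 14 bases. Its identity is thus not that of the whole genes. The longest run of identical coding bases between any pair of the 8 genes was 23 bases, for Tbx4 with Tbx5 and for Tbx15 with Tbx18, against reads of 100 bases. Tbx5 shared at most 15 bases in a row with its neighbour Tbx3 and 20 with Tbx2.

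The libraries held 39628101 to 68530912 counts. Wild-type replicate 4 stood apart, with a Spearman correlation to its own group of 0.864 (median), where the remaining wild-type libraries had 0.948 to 0.961 and the ΔAgo2 libraries 0.985 to 0.986, and with 0.540% of its counts on mitochondrial genes against 2.39% to 4.51% elsewhere. Ago2 itself averaged 303.6 ± 165 CPM over wild-type and 351 ± 55.7 CPM over ΔAgo2 libraries (SD, n = 4). CPM are counts scaled to library size. The Ago2 transcript thus gave no check of the labels, which are used as deposited. The paper examined Ago2 protein of wild-type and ΔAgo2 LLC cells by western blot, which was not examined here. The mesenchymal markers Vim, Fn1, Cdh2, Zeb1, Twist1 and Col1a1 included 5 of 6 above 1 TPM (a level scaled to gene length and library total) in every library. The exception was Col1a1, at 0.39 to 1.02 TPM in wild-type and 0.38 to 1.47 TPM in ΔAgo2 libraries. Of the epithelial markers, Krt8 and Krt18 were expressed, Epcam had at most 1 count and Cdh1 at most 9. Krt19 was at 0.27 to 4.23 TPM in wild-type and 2.59 to 4.70 TPM in ΔAgo2 libraries. Of the lung epithelial markers, Nkx2-1 and Scgb1a1 had 0 counts and Sftpc at most 1, so the defining markers of lung epithelium were absent. The cardiac marker Myh6 had 0 counts, and the cardiac list summed to at most 0.11 TPM in any library, the endothelial list to at most 0.75 TPM, and the leukocyte list to 1.19 to 6.33 TPM, nearly all from Lyz2, while the leukocyte marker Ptprc had at most 2 counts. Over all genes tested, edgeR (quasi-likelihood, Benjamini-Hochberg adjusted) called 42 of 14228 genes at an adjusted p under 0.05, or 0.295%, with 11 higher (0.0773%) and 31 lower (0.218%) in ΔAgo2 cells, and the median log2 fold change was -0.11.

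Tbx5 (ENSMUSG00000018263.11, GRCm38 chr5:119832668-119885219, plus strand), the activator that starts forelimb growth and shapes the heart, was counted in every wild-type library and in no ΔAgo2 library. Wild-type replicates 1 to 4 held 168, 59, 323 and 186 Tbx5 counts, which came to 2.26, 0.70, 3.51 and 2.74 TPM. The 4 ΔAgo2 libraries held 0 counts each. The groups did not overlap, and wild-type replicate 2 was the lowest of the wild-type libraries although its 63594663 counts were more than those of any ΔAgo2 library. The wild-type mean of Tbx5 was 3.71 ± 2.14 CPM (SD, n = 4). A count of 0 allows up to 3 counts per library, or 0.0488 to 0.0735 CPM in the ΔAgo2 libraries, and against that limit the level was at least 59.2-fold lower in ΔAgo2 cells, or at least 48.2-fold lower without wild-type replicate 4. These limits cover counting error only. In bulk libraries, fewer cells that express a gene and less of its RNA per cell cannot be told apart.

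In the edgeR fit over all genes, 1 of the 7 members kept by the filter, Tbx5, was past the adjusted threshold, lower in ΔAgo2 cells, beside 0.295% of all genes tested in either direction and 0.218% lower, but this contrast chose the set, so nothing is read from the count. No member was past the threshold when wild-type replicate 1, wild-type replicate 3 or any 1 of the 4 ΔAgo2 replicates was left out. Tbx20 was too low to be tested.

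**Figure D1:**
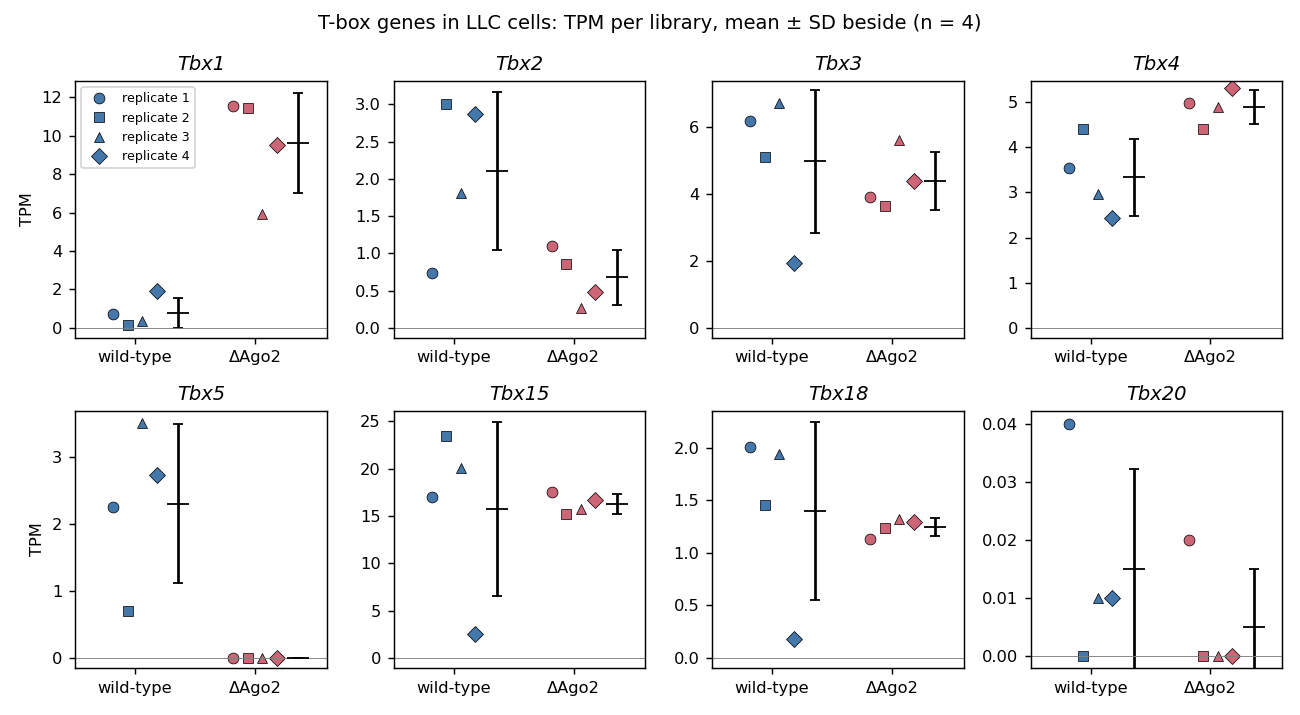
TPM of the 8 T-box genes in each wild-type (blue) and ΔAgo2 (red) library, with a marker shape per replicate number and the mean ± SD beside the points (n = 4, linear axes of different height; bars that reach below the axis are cut there). Tbx5 is at 0 in the 4 ΔAgo2 libraries, Tbx1 is at 5.94 to 11.56 TPM in them against 0.17 to 1.92 in wild-type, and wild-type replicate 4 is the lowest point for Tbx15 and Tbx18.

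Tbx1 (ENSMUSG00000009097.10, GRCm38 chr16:18580979-18590671, minus strand), the pharyngeal arch factor of the region deleted in DiGeorge syndrome, was the member with the higher level in ΔAgo2 cells by the widest margin. Its counts were 40, 11, 25 and 98 across wild-type replicates 1 to 4, against 662, 466, 252 and 502 across ΔAgo2 replicates 1 to 4. The groups did not overlap, and the highest wild-type library was replicate 4. The mean was 1.10 ± 1.33 CPM over wild-type and 9.38 ± 2.24 CPM over ΔAgo2 libraries (SD, n = 4), an 8.56-fold ratio of means and a log2 fold change of 3.13 (SE 0.80). Without wild-type replicate 4, the ratio of means was 20.99-fold and the log2 fold change 4.43.

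A promoter window of Tbx1 is shown because this gene differed upward and holds the one T-box half-site found in the windows searched. RefSeq windows of 300 bases on GRCm38.p6 around the annotated starts were at hand for 4 of the 8 genes, Tbx1, Tbx4, Tbx18 and Tbx20, with 5 windows in all. In the upstream window of Tbx1 (chr16:18590622-18590921, minus strand), printed 5′ to 3′ on the strand of the gene, capitals mark the match to AGGTGTNA.
Tbx1: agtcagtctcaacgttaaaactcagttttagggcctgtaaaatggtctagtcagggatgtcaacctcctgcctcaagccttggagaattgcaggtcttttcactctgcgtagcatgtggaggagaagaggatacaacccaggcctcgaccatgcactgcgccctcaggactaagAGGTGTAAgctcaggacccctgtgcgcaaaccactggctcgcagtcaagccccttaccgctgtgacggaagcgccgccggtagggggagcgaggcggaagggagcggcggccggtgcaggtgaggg
This was the only match in the 5 windows to any of the 3 motifs searched on both strands. AGGTGTNA, which includes AGGTGTGA, was found in 3.03% of 32851 RefSeq promoter windows of the same length, AGGTGTGA in 1.28%, and GGTGTGA, which lies within AGGTGTGA, in 3.98%. The match is a description of the letters only. The other Tbx1 window (chr16:18588850-18589149, minus strand) had a GC content of 69.0% and 26 CpG dinucleotides, against 58.3% and 16 in the window printed.

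Tbx2 (ENSMUSG00000000093.6, GRCm38 chr11:85832551-85841948, plus strand), a repressor that holds back cell differentiation in the heart and limb, was lower on average in ΔAgo2 cells, with overlapping groups. Its counts were 42, 197, 129 and 151 across wild-type replicates 1 to 4, against 65, 36, 12 and 26 across ΔAgo2 replicates 1 to 4. Wild-type replicate 1 fell among the ΔAgo2 libraries, and the other wild-type libraries lay above them. The means were 2.56 ± 1.62 CPM and 0.675 ± 0.345 CPM (SD, n = 4), a 3.797-fold ratio, and the log2 fold change was -1.91 (SE 0.60). Without wild-type replicate 4, which held the highest level at 4.69 CPM, the wild-type mean was 1.85 ± 0.970 CPM.

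Tbx3 (ENSMUSG00000018604.18, GRCm38 chr5:119670669-119684724, plus strand), a repressor of the limb, mammary gland and conduction system, had overlapping levels in the genotypes. Its counts were 653, 611, 875 and 187 across wild-type replicates 1 to 4, against 423, 281, 448 and 435 across ΔAgo2 replicates 1 to 4. The groups overlapped, and the lowest level was that of wild-type replicate 4. The means were 10.2 ± 3.61 and 8.19 ± 1.98 CPM (SD, n = 4), with a log2 fold change of -0.32 (SE 0.35).

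Tbx4 (ENSMUSG00000000094.12, GRCm38 chr11:85886422-85916097, plus strand), the activator of hindlimb outgrowth and lung mesenchyme, differed little in size and did not overlap. Its counts were 191, 270, 198 and 120 across wild-type replicates 1 to 4, against 275, 174, 200 and 271 across ΔAgo2 replicates 1 to 4. Scaled to depth, the wild-type libraries reached at most 3.88 CPM and the ΔAgo2 libraries began at 4.13 CPM. The means were 3.59 ± 0.440 and 4.66 ± 0.442 CPM (SD, n = 4), a 1.30-fold ratio and a log2 fold change of 0.37 (SE 0.31). In TPM the gap nearly closed, at 4.40 TPM in wild-type replicate 2 and 4.41 TPM in ΔAgo2 replicate 2.

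Tbx1 and Tbx4, higher, and Tbx5, lower, were the 3 tested members whose groups did not overlap in CPM, beside 6.07% of all genes tested in either direction, 3.09% higher and 2.98% lower. The choice of the set used this contrast. Over the 7 tested members, 2 log2 fold changes were above 0 and 5 below, with a median of -0.26 beside the -0.11 of all genes.

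Tbx15 (ENSMUSG00000027868.11, GRCm38 chr3:99240381-99354259, plus strand), a factor of skeletal and muscle development, had the highest mean TPM of the 8 members in both genotypes. Its counts were 1012, 1585, 1477 and 140 across wild-type replicates 1 to 4, against 1071, 661, 709 and 938 across ΔAgo2 replicates 1 to 4. Wild-type replicate 4 was far below every other library and the groups overlapped. The wild-type mean was 17.3 ± 8.69 CPM (SD, n = 4) with that library and 21.7 ± 0.971 CPM (SD, n = 3) without it, against 17.1 ± 0.922 CPM in ΔAgo2 cells. The log2 fold change moved from -0.02 (SE 0.44) to -0.34 when it was left out.

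Tbx18 (ENSMUSG00000032419.8, GRCm38 chr9:87702800-87731260, minus strand), a marker of the epicardium and the sinus node, had the same kind of spread at a lower level. Its counts were 151, 123, 180 and 12 across wild-type replicates 1 to 4, against 87, 68, 75 and 91 across ΔAgo2 replicates 1 to 4. Scaled to depth, wild-type replicate 4 was the lowest, wild-type replicates 1 and 3 lay above the ΔAgo2 range and replicate 2 within it, so the groups overlapped. The log2 fold change was -0.26 (SE 0.55) and -0.59 without wild-type replicate 4.

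Tbx20 (ENSMUSG00000031965.15, GRCm38 chr9:24718138-24774303, minus strand), a factor of the heart muscle and valves, had 8, 0, 3 and 1 counts across wild-type replicates 1 to 4, against 3, 0, 0 and 0 across ΔAgo2 replicates 1 to 4. All libraries but wild-type replicate 1 were at or under 3 counts, and no fold is given.

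The place of wild-type replicate 4 among the wild-type libraries was set beside the base composition of the transcripts. Tbx1 and Tbx2, with a GC content of 62.8% and 63.2% in their transcripts, were highest in CPM in wild-type replicate 4, and so was Tbx5 at 51.3%. Tbx15 and Tbx18, at 48.2% and 46.8%, were lowest in it, and so was Tbx3 at 52.6%. Tbx4 at 53.9% and Tbx20 at 42.3% were at neither end in it. In TPM, Tbx2 was highest in wild-type replicate 2, at 3.01 against 2.87 in replicate 4. Tbx5 was highest in replicate 3 by TPM, at 3.51 against 2.74, and Tbx4 was lowest in replicate 4, at 2.43. The part of base composition in these results was not tested.

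**Figure D2:**
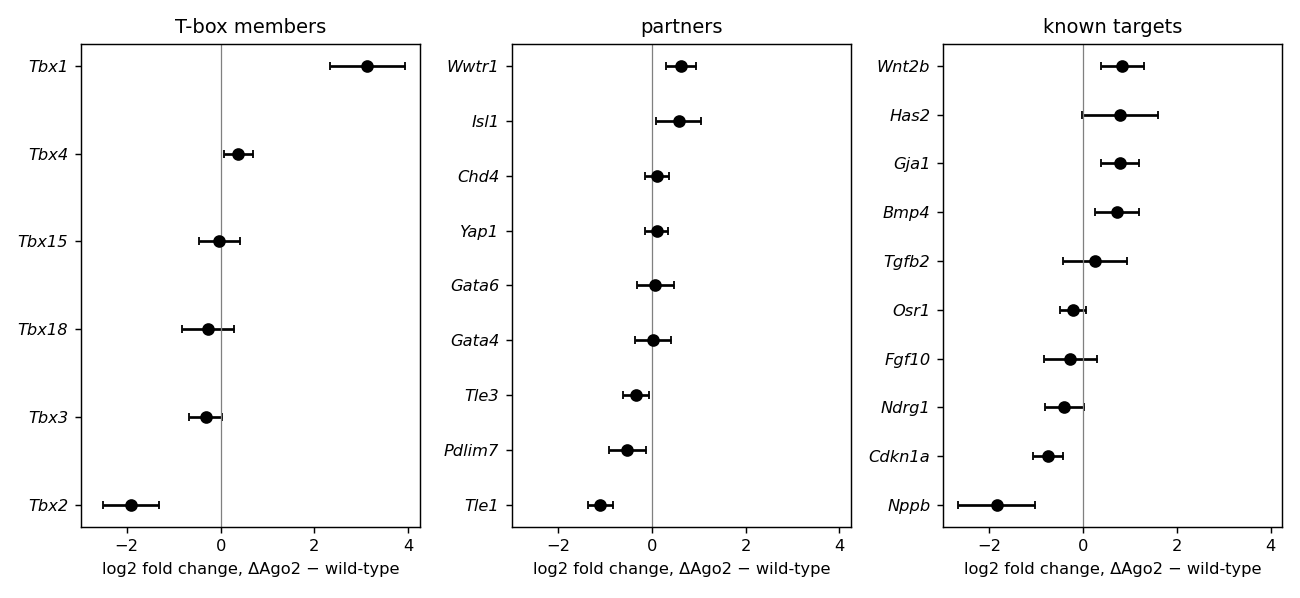
Log2 fold change, ΔAgo2 minus wild-type, with bars of ± 1 SE from edgeR, for the T-box members tested other than Tbx5, the tested partners and the tested known targets (n = 4 libraries per genotype). Tbx1 is at 3.13 and Tbx2 at -1.91, the partners run from -1.10 for Tle1 to 0.62 for Wwtr1, and Tbx5 is left out because its fitted value against 0 counts depends on the prior count.

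In TPM, which allows genes to be compared per length, the order of the members differed between the genotypes. In wild-type cells the mean levels ran from Tbx15 at 15.8 ± 9.19 TPM (SD, n = 4) through Tbx3 at 4.99 ± 2.14, Tbx4 at 3.33 ± 0.843, Tbx5 at 2.30 ± 1.19, Tbx2 at 2.11 ± 1.06, Tbx18 at 1.40 ± 0.847 and Tbx1 at 0.79 ± 0.786 to Tbx20 at 0.015. The ranges of neighbours in that order overlapped for every pair except Tbx1 with Tbx20. In ΔAgo2 cells Tbx15, at 16.3 ± 1.05 TPM, was followed by Tbx1 at 9.62 ± 2.62, Tbx4 at 4.90 ± 0.375, Tbx3 at 4.40 ± 0.865, Tbx18 at 1.25 ± 0.0835, Tbx2 at 0.678 ± 0.373, Tbx20 at 0.005 and Tbx5 at 0. The ranges overlapped only for Tbx4 with Tbx3 and for Tbx20 with Tbx5.

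The level summed over the 8 genes was 32.43, 38.3, 37.36 and 14.66 TPM across wild-type replicates 1 to 4, against 40.25, 36.81, 33.71 and 37.74 TPM across ΔAgo2 replicates 1 to 4. The sums overlapped, and wild-type replicate 4 was the lowest. Of the sum, Tbx1 made up 4.17% ± 5.99 (SD, n = 4) among wild-type and 25.7% ± 5.87 among ΔAgo2 libraries. Tbx15 held 46.2% ± 19.5 and 43.9% ± 2.15 in the same order.

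The linked pairs were compared within each library. Tbx3 ends 147.944 kb before Tbx5 starts on chromosome 5, and Tbx2 ends 44.474 kb before Tbx4 starts on chromosome 11. Tbx5 made up 26.7%, 12.05%, 34.3% and 58.5% of the Tbx3 and Tbx5 level in TPM in wild-type replicates 1 to 4, and 0% in the ΔAgo2 libraries, where Tbx3 stayed at 3.66 to 5.61 TPM. Tbx3 was the more abundant gene of the pair in every library except wild-type replicate 4. In the other pair, Tbx4 made up 82.9%, 59.4%, 62.1% and 45.8% across wild-type replicates 1 to 4, against 81.9%, 83.7%, 94.8% and 91.7% across ΔAgo2 replicates 1 to 4. The shares of wild-type replicate 1 and ΔAgo2 replicate 1 crossed, so these groups overlapped. The summed level of Tbx2 and Tbx4 was 5.44 ± 1.38 TPM over wild-type and 5.57 ± 0.436 TPM over ΔAgo2 libraries (SD, n = 4), and that of Tbx3 and Tbx5 was 7.29 ± 2.52 and 4.40 ± 0.865 TPM. In the Tbx3 and Tbx5 pair both means were thus lower in ΔAgo2 cells, by the wider margin for the activator, Tbx5. In the Tbx2 and Tbx4 pair the mean of the repressor, Tbx2, was lower and that of the activator, Tbx4, was higher.

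**Figure D3:**
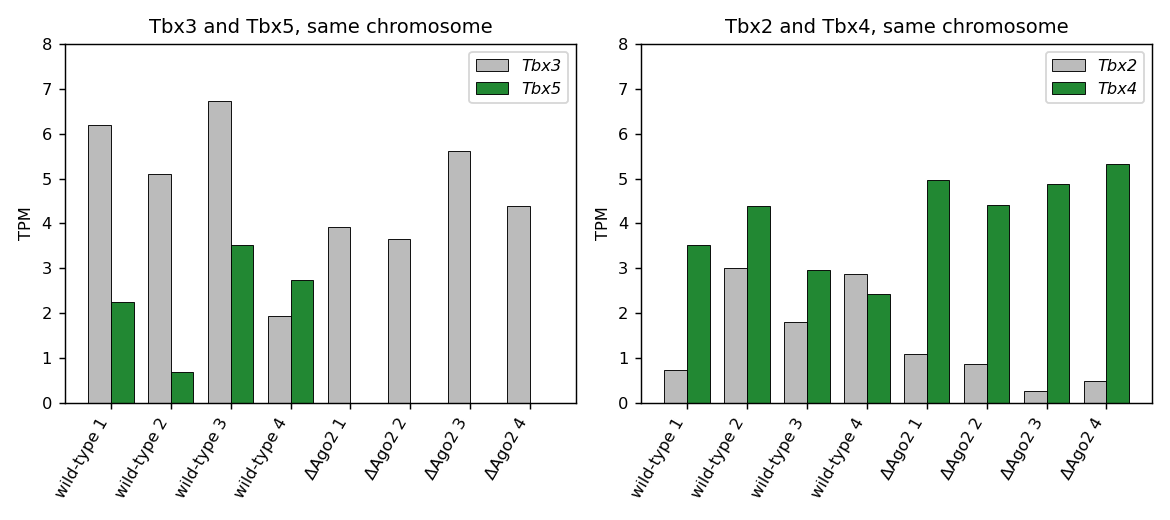
TPM of the linked repressor (grey) and activator (green) in each of the 8 libraries, Tbx3 with Tbx5 on the left and Tbx2 with Tbx4 on the right (1 bar per gene and library, axes from 0). The green Tbx5 bar is missing in the 4 ΔAgo2 libraries, and the grey Tbx2 bar is at 0.27 to 1.10 TPM in them.

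The genes around each pair were then examined over windows reaching 500 kb to either side. The window around Tbx3 and Tbx5 held 18 other annotated genes, of which 11 had 0 counts in every library and 1 was abundant enough to test. That gene, Rbm19, a ribosome biogenesis factor 3′ of Tbx5, was at 37.4 ± 21.4 CPM over wild-type and 36.2 ± 3.05 CPM over ΔAgo2 libraries (SD, n = 4). It did not pass the test, with a log2 fold change of -0.05 and adjusted p = 0.983 by edgeR (quasi-likelihood, Benjamini-Hochberg adjusted). The noncoding gene Gm43050, at chr5:119828448-119831920 on the minus strand, ends 747 bases before Tbx5 starts in GENCODE. It held 40, 5, 30 and 42 counts across wild-type replicates 1 to 4, against 0 in each ΔAgo2 library. The groups did not overlap, and wild-type replicate 2 was the lowest for it as it was for Tbx5. It fell under the count filter and was listed through its wild-type counts, so its values are a description with no test. The RefSeq model of Tbx5 runs from 119796514 to 119885220 on the plus strand and so spans Gm43050. The strand setting of the counting is not given in the sources used here, so reads of the 2 genes cannot be told apart. Gm42655, a gene model of unsettled type in GENCODE, held 31, 4, 122 and 3 counts across wild-type replicates 1 to 4, against 6, 5, 34 and 7 across ΔAgo2 replicates 1 to 4, and its groups overlapped. Tbx3os1, which shares 697 bases with Tbx3, had at most 12 counts.

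**Figure D4:**
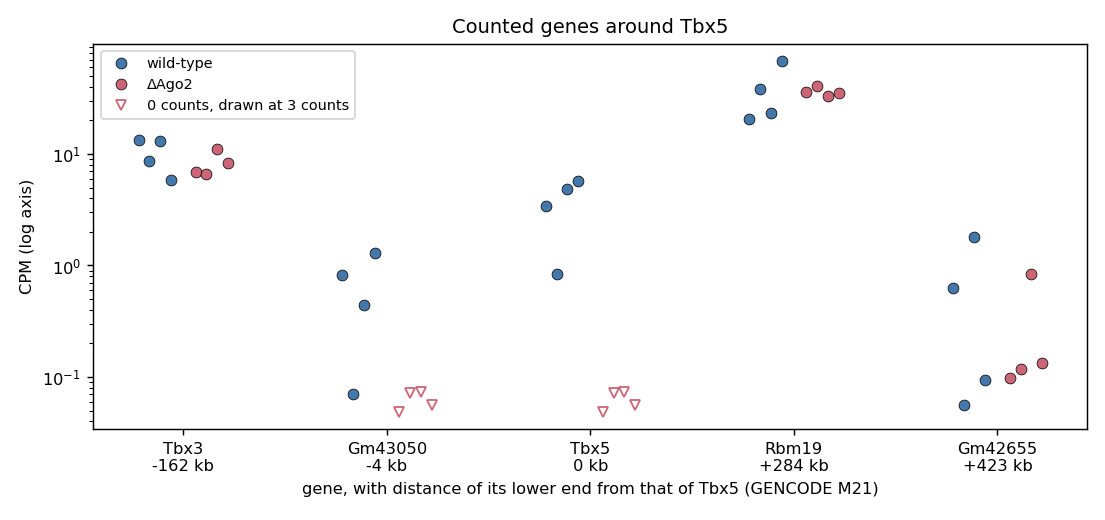
CPM on a log axis of Tbx3, Gm43050, Tbx5, Rbm19 and Gm42655, ordered by the distance of their lower end from that of Tbx5 (wild-type blue, ΔAgo2 red, 1 point per library). Open triangles are libraries at 0, drawn at the limit of 3 counts. Tbx3os1, with at most 12 counts, is not drawn. Tbx5 and Gm43050 are at 0 in all 4 ΔAgo2 libraries, while Tbx3 and Rbm19 on either side are counted in all 8.

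The window around Tbx2 and Tbx4 held 17 other genes, and 0 of the 6 tested passed. Ppm1d, a phosphatase that dampens p53 signalling, had a log2 fold change of 0.27, and Bcas3, upstream of Tbx2, one of -0.41. Brip1, a helicase of DNA repair, was at 0.52 with its antisense gene Brip1os at 0.33, and the Integrator subunit gene Ints2 and the Mediator subunit gene Med13 were at -0.09 and 0.07. Adjusted p ran from 0.757 to 0.983 by edgeR (quasi-likelihood, Benjamini-Hochberg adjusted). None of the 6 had an unadjusted p under 0.05, and DESeq2 called none of the 11 genes it gave a p. The signs of Rbm19 and Ints2 flipped under other scalings, and that of Med13 with sample weights.

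Of the other 9 T-box genes, Mga was the most abundant, at 25.6 ± 18.6 TPM over wild-type and 23.5 ± 3.92 TPM over ΔAgo2 libraries, and Tbx6, a somite factor, was at 0.73 ± 0.427 and 1.06 ± 0.218 TPM. Mga, which pairs a T-box with a Myc-type dimerization domain and binds Max, was at 113 ± 78.6 CPM over wild-type and 101 ± 18.2 CPM over ΔAgo2 libraries (SD, n = 4). Mga counts ranged from 5320 to 13246 for wild-type replicates 1 to 3 and were 293 for replicate 4, and the groups overlapped. Of the 9 genes, 3 were tested and 0 passed by edgeR (quasi-likelihood, Benjamini-Hochberg adjusted), with log2 fold changes of -0.17 for Mga (above 0 on the TPM scales and with the replicate block; adjusted p = 0.959), 0.41 for Tbx6 (adjusted p = 0.843) and 0.54 for Eomes (adjusted p = 0.858). None of the 3 had an unadjusted p under 0.05, and DESeq2 called none of the 8 it gave a p. Tbx22, a palate factor, had 0 counts in all libraries, and the remaining 5 genes reached at most 17 counts.

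DNA-binding partners and cofactors of T-box factors were counted from a list of 16 genes. By edgeR (quasi-likelihood, Benjamini-Hochberg adjusted), 0 of the 9 tested passed, beside 0.295% of all genes, and 1 had an unadjusted p under 0.05, beside 7.34% of all genes. Log2 fold changes were above 0 for 6 and below 0 for 3, with a median of 0.08. Gata4, a zinc finger partner of Tbx5 in the heart, was at 17.0 ± 7.43 CPM over wild-type and 17.2 ± 5.397 CPM over ΔAgo2 libraries (SD, n = 4), while Nkx2-5, its homeodomain partner, had at most 4 counts. The chromatin remodeller Chd4 had a log2 fold change of 0.11 and the Hippo coactivators Yap1 and Wwtr1 of 0.10 and 0.62. Pdlim7, which binds Tbx4 and Tbx5 and moves them within the cell, was at -0.52, a sign that turned without wild-type replicate 4. Tle1, a Groucho corepressor singled out after its values were seen, held 4350, 5673, 9420 and 4083 counts across wild-type replicates 1 to 4, against 3052, 2103, 2280 and 2550 across ΔAgo2 replicates 1 to 4. Scaled to depth it was lower in 4 of 4 ΔAgo2 libraries, at 50.9 ± 3.38 against 108.9 ± 29.0 CPM, without overlap. Tle1 was the 1 of the 9 tested partners without overlap, beside 6.07% of all genes tested in either direction and 2.98% lower. Its log2 fold change of -1.10 (SE 0.26) did not pass, with adjusted p = 0.196 by edgeR (quasi-likelihood, Benjamini-Hochberg adjusted). DESeq2 called 2 of the 14 listed genes it gave a p, Tle1 and Mef2c. Across all genes DESeq2 called 399, against 42 by edgeR. The number of genes that DESeq2 tested is not given here, so the 2 of 14 stand beside no share over all genes. Mef2c held 7, 5, 7 and 3 counts across wild-type replicates 1 to 4, against 0 in each ΔAgo2 library. It was near the limit of 3 counts and fell under the edgeR filter. Its adjusted p was 0.040 with DESeq2 and 0.082 with edgeR (quasi-likelihood) without the filter. DESeq2 gave it a p through its wild-type counts alone, so its values are a description.

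Genes known as T-box targets were counted from a list of 17. By edgeR (quasi-likelihood, Benjamini-Hochberg adjusted), 0 of the 10 tested passed and 2 had an unadjusted p under 0.05, beside 7.34% of all genes. DESeq2 called 0 of the 13 it gave a p. Log2 fold changes were above 0 for 5 and below 0 for 5, with a median of 0.02. The heart targets Nppa, Gja5 and Myl7 and the tumor suppressor gene Cdkn2a had 0 counts in every library. Cdkn1a, the p21 cell cycle inhibitor that Tbx2 and Tbx3 repress, was at 596 ± 186 CPM over wild-type and 356 ± 83.8 CPM over ΔAgo2 libraries (SD, n = 4), with overlapping groups. Its log2 fold change of -0.74 gave adjusted p = 0.657 by edgeR (quasi-likelihood, Benjamini-Hochberg adjusted). Nppb, a natriuretic peptide gene chosen for mention after its values were seen, had 13, 11, 46 and 24 counts in wild-type and 16, 8, 1 and 1 counts across ΔAgo2 replicates 1 to 4. The log2 fold change of Nppb was -1.84 with adjusted p = 0.670 by the same edgeR test. The gap junction gene Gja1 was at 320 ± 173 and 550 ± 108 CPM with a log2 fold change of 0.78 and adjusted p = 0.714 by edgeR. Fgf10, a lung and limb growth factor downstream of Tbx4 and Tbx5, was at 17.3 ± 14.4 CPM over wild-type libraries. Over ΔAgo2 libraries it was at 14.4 ± 6.67 CPM, with overlapping groups. Its log2 fold change of -0.27 gave adjusted p = 0.920 by edgeR. Ndrg1, a growth suppressor gene that Tbx2 represses, and Osr1, a mesenchymal factor linked to Tbx5 in the heart, had log2 fold changes of -0.40 and -0.21, and the sign for Osr1 turned on the TPM scales.

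The genes whose log2 CPM most resembled that of Tbx5 over the 8 libraries were Gm53 (Pearson's r = 0.995), Wasf3 (0.989), Hoxb5os (0.988), Adam19 (0.987) and Xlr (0.986). Those most opposed were Atpaf1 (-0.983), Naip2 (-0.974), Zbtb7a (-0.974), Gabra3 (-0.964) and Cadm1 (-0.963). The points are 8 libraries that fall into 2 genotypes, so these values mainly order genes by how they split the genotypes and are given as a description.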

How the data were processed

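RNA-seq of 4 wild-type and 4 ΔAgo2 LLC libraries was used. The authors mapped reads of 100 bases to ribosomal RNA first and mm10 second (STAR per the submitters' processing notes) and deposited featureCounts counts, not normalized, for 55487 genes. They also deposited TPM. The annotation release and strand setting are not given in the sources used here. Totals were 39628101 to 68530912 counts, and intervals from 3 counts cover counting error only. Genes passing filterByExpr were normalized with TMM and tested by genotype with edgeR 4.0.16 (R 4.3.3), quasi-likelihood, two-sided, with Benjamini-Hochberg adjustment. The SE is |log2 fold change|/√F. CPM are counts over TMM-scaled library sizes. Positions are from GENCODE M21, and 93 identifiers had no match. The members and gene lists were chosen with earlier results of these data known. Named genes are the members and Ago2, the other T-box genes, neighbours within 500 kb that were tested or had at least 10 counts in a library, and, of the partners, targets and neighbours, those past the threshold and up to 4 others of highest mean CPM, with the 5 genes most and least like Tbx5. The result for 1 gene of the target list and the coding stretch of 1 pair are not reported here. Tle1, Nppb, Mef2c, Gata4, Nkx2-5, Fgf10, Nppa, Gja5, Myl7 and Cdkn2a, and the neighbours Bcas3 and Brip1, were named besides. Alternatives were DESeq2 1.42.0, limma 3.58.1 (voom with sample weights, log2(TPM + 1), log2(TPM + 0.1)), other scalings and filters, a replicate block and each library left out. The scripts were tested on simulated data.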

Additional observations from a re-analysis of the deposited data

Results flagged for a closer look

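Among 51 groups of 4 libraries examined, 4 held a library far from the others of its group, by the gap to the nearest library divided by the range of the group. Chance gives about 1 in 20 groups. In wild-type cells, Tbx15 was lowest in replicate 4 with a ratio of 0.947, and Tbx4 was lowest in replicate 3 with 0.850. In ΔAgo2 cells, Tbx15 was lowest in replicate 2 with 0.8293, and Tbx6 was highest in replicate 3 with 0.851.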

How the results depend on the processing

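The 42 genes called across all genes became 399 with DESeq2, 143 without a filter on low counts, 6 with a stricter filter, 257 with voom and sample quality weights, 15 on log2(TPM + 1) and 18 with the replicate number as a block, and ran from 1 (without ΔAgo2 replicate 1) to 113 (without wild-type replicate 4) with a library left out. The 1 member called, Tbx5, became 3 with DESeq2 (with Tbx1 and Tbx2), 2 without the filter (with Tbx1), 0 with the stricter filter (which dropped Tbx5, so that no value was given for it), 2 with voom and 2 on log2(TPM + 0.1) (both with Tbx1), and on log2(TPM + 1) it was Tbx1 in place of Tbx5. It became 0 to 2 with a library left out. The same contrast chose the set, so nothing is read from these calls of members. The numbers of genes tested under the alternatives are not given here, so no shares stand beside them. Partners and targets called rose from 0 to 2 with DESeq2 and 1 with voom, and stayed at 0 to 0 with a library left out. The log2 fold change of Tbx1 ran from 2.74 to 4.43 with a library left out. With voom, Tbx2 was at -0.73, Tbx5 at -8.12, Tbx5 minus Tbx3 at -7.41 and Tbx4 minus Tbx2 at 1.01. On log2(TPM + 1) the same were -0.84, -1.64, -1.56 and 1.30, and on log2(TPM + 0.1) Tbx4 was at 0.57, Tbx5 at -4.39 and Tbx5 minus Tbx3 at -4.33. These Tbx5 values depend on the value added to 0. Signs turned with a library left out for Yap1 (-0.034 to 0.19), Ago2 (-0.047 to 0.60), Pdlim7 (-0.72 to 0.025), Rbm19 (-0.24 to 0.40), Med13 (-0.30 to 0.39), Ints2 (-0.38 to 0.10) and Mga (-0.55 to 0.24), for Pdlim7 (0.037), Rbm19 (0.58) and Med13 (-0.0048) with voom, for Rbm19 with library size alone (0.11) and without the filter (0.0032), for Rbm19 (0.30 and 0.32), Ints2 (0.24 and 0.30), Osr1 (0.042 and 0.044) and Mga (0.50 and 0.65) on the TPM scales with 1 and 0.1 added, and for Rbm19 (0.12), Ints2 (0.086) and Mga (0.26) with the block. Tbx15 and Tbx18, near 0, also changed sign. The cause was not tested. The median over all genes moved from -0.11 to 0.15 and 0.22 on the TPM scales, 0.02 with the block, -0.01 with library size alone and -0.0038 with voom. The replicate numbers are not stated to pair the libraries, and deviations of same-numbered libraries correlated at -0.138, -0.0491, 0.384 and 0.0278. The adjusted p of Tle1 was 0.0137 with DESeq2 and up to 0.566 over its alternatives.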
